A study of Drosophila melanogaster with 2 samples.

Results

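Germ plasm genes were examined in a chromatin immunoprecipitation experiment on bobby sox (bbx), an HMG-box protein of Drosophila melanogaster. The 6 genes nanos, osk, vas, tud, pgc and vls were taken by name from 13968 protein-coding genes, and a peak was given to a gene when its summit lay inside the gene or up to 2 kb upstream of it. The embryos came from transgenic flies carrying an insertion that makes a bbx protein fused to eGFP, and an antibody against GFP pulled down the chromatin, sonicated to 200 to 800 bp. There was 1 group of 2 biological replicates, each of whole embryos aged 0 to 24 h, so the peaks pool all ages and cell types of that interval. No untagged or input library was analysed here, and the depth is unknown because the files give peaks without read totals. The peak signal is the authors' own value for each peak, on a scale that the labels do not describe, so it is compared only between peaks.

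Germ plasm is the cytoplasm at the posterior pole of the egg that makes the cells inheriting it, the pole cells, become the germ line. Oskar protein starts its assembly, Vasa, Tudor and Valois take part in building it, and the nanos and pgc RNAs are held in it and act in the pole cells. These RNAs and proteins are made largely by the mother during oogenesis.

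Promoter sequence is shown where the peaks bear on it: beside the strongest peak, upstream of nanos, vas, vig and vls, and at osk, which had no peak. Coordinates are on dm6, the sequence is from the RefSeq Release 6 genome, each run is written 5′ to 3′ on the strand of the gene named, and the 30 bases of the nanos peak are on the plus strand. The nanos peak bases lie at chr3R:19156839-19156868 and end at the summit, and the nanos upstream bases at chr3R:19157018-19157237 on the plus strand. The vas upstream bases lie at chr2L:15061459-15061655 on the plus strand, the vig upstream bases at chr2L:15068079-15068196 on the minus strand, the vls upstream bases at chr2L:20065680-20065864 on the minus strand and the osk upstream bases at chr3R:8934976-8935125 on the plus strand. Capitals mark every match, on either strand, to 9 short motifs. TATCGATA is the DNA replication-related element, or DRE, and the shorter core bound by the insulator protein BEAF-32, CGATA, lies inside it. The core recognised by SOX proteins was searched as ACAAT, and that of TCF, another HMG-box protein, as CTTTG. Part of the element bound by M1BP was searched as GGTCACAC, the site of the early embryonic activator Zelda as CAGGTAG, and the repeat bound by GAGA factor as GAGAG. An E-box, the site of many basic helix-loop-helix proteins, was searched as CAGCTG, and the core promoter box recognised by the TATA-binding protein as TATAAA.
nanos peak: cggtggctcgtgCGATAgttcgttttgtcg
nanos upstream: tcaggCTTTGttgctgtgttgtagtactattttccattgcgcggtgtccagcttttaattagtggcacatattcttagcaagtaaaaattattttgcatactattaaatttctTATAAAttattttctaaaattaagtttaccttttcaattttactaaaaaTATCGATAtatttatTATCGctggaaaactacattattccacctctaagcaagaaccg
vas upstream: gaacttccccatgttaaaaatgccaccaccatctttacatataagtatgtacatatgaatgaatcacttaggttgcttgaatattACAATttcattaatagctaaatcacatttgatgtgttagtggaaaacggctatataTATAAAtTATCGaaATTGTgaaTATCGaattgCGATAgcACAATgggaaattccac
vig upstream: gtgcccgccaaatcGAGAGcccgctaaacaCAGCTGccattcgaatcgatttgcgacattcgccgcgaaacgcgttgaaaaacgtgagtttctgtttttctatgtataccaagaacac
vls upstream: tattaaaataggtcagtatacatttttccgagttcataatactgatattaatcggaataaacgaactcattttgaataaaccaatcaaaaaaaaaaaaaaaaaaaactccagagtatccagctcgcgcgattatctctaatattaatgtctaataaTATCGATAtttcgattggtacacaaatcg
osk upstream: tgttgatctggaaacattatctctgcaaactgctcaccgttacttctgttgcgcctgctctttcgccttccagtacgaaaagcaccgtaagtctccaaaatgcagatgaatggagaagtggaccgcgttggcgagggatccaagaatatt

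A conservative peak, one that the authors kept from the comparison of both replicates, had its summit in the window of 5 of the 6 germ plasm genes, against 37.5% of all protein-coding genes. Only osk had none. The windows measured 14.7 kb at vas, 11.6 kb at tud and 5.27 kb at osk. Those of nanos, pgc and vls measured 4.96, 4.61 and 3.42 kb. The median over all protein-coding genes was 4.16 kb. The irreproducible discovery rate (IDR) is the global one, the estimated share of irreproducible peaks among those ranked at least as high. Among ranked peaks with an IDR of 0.05 or less, the same 5 genes had a summit, against 46.2% of all protein-coding genes. At 3 of the 6, vas, tud and vls, a summit had no other gene's transcription start nearer than the gene's own. The share of all protein-coding genes was 25.4%. Ties count in both figures, and the vas start is also the start of solo. The 5 windows held 9 conservative summits, of which 6 lay nearest to the start of another gene: CG11779 beside nanos, vig inside vas, 2 tRNA genes beside tud, and CG34207 and T3dh at pgc. Of the 5 genes, nanos and pgc had no summit nearest to their own start. The same held for 32.3% of all protein-coding genes with a conservative summit. Of the 9, 8 lay within 100 bp of some annotated start, against 65.5% of all conservative summits, and 7 lay in the windows of 2 or more genes; 53.1% of all conservative summits in a gene window lay in more than 1. With 6 genes chosen by name, these counts describe the genes and were given no test.

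**Figure D1:**
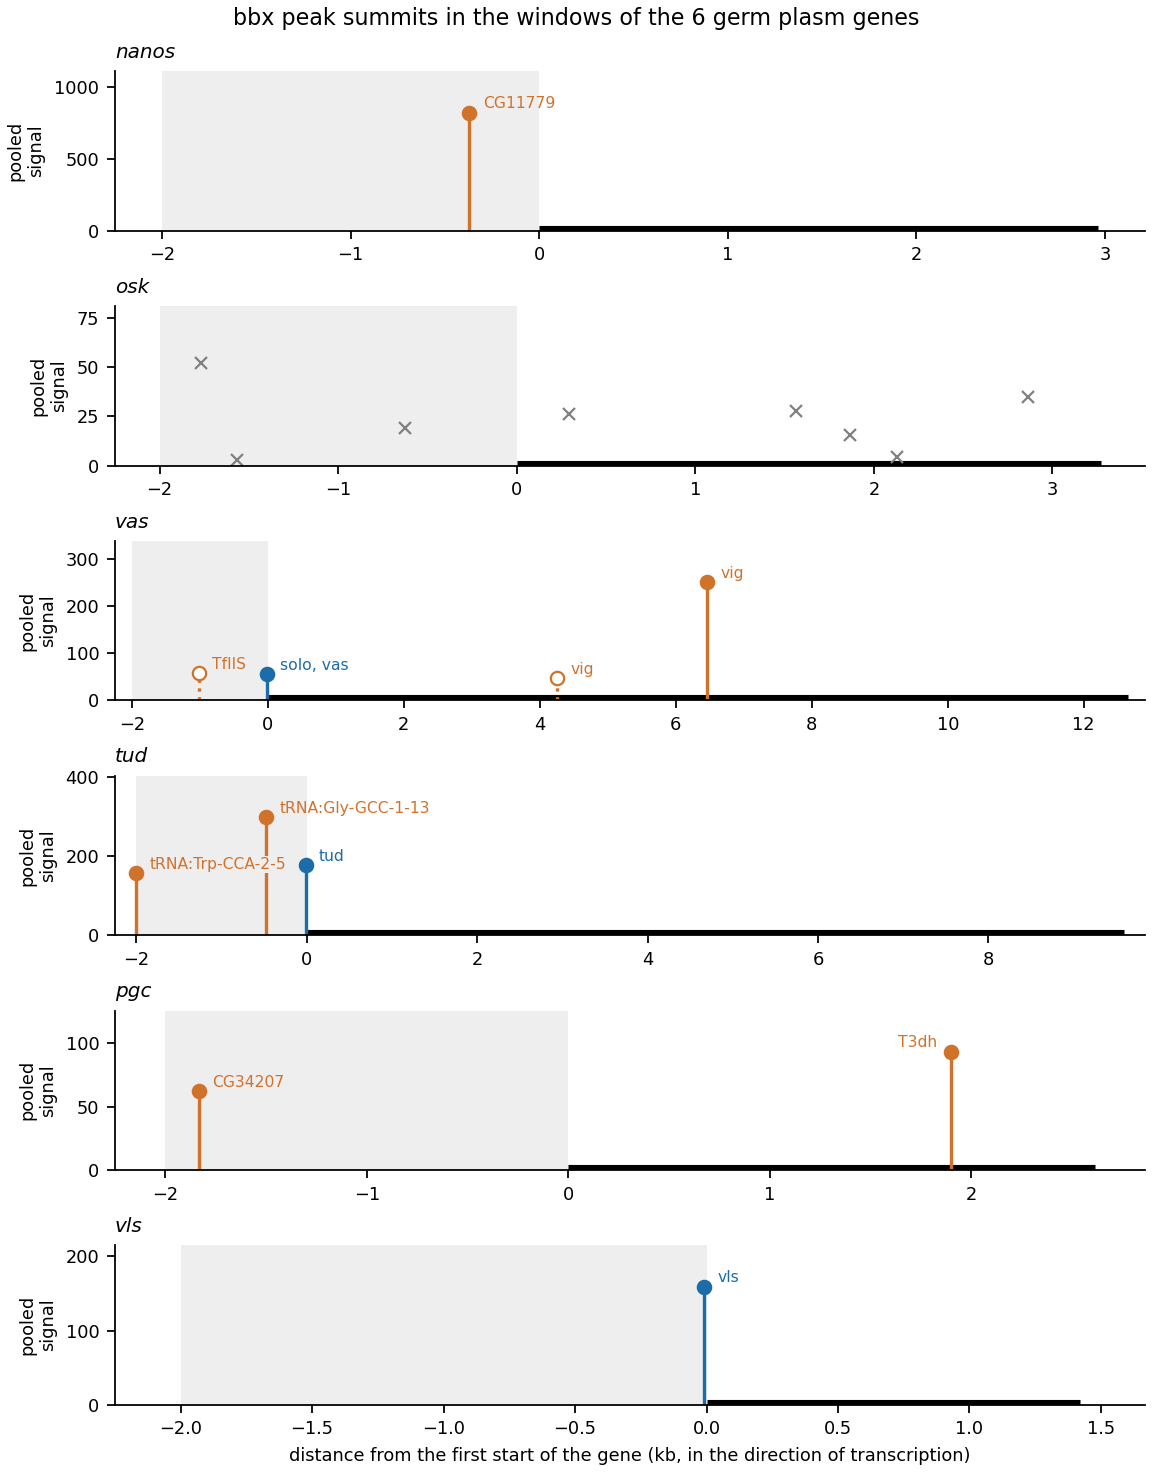
Pooled signal of peak summits against the distance in kb from the first start of each germ plasm gene, with the 2 kb upstream shaded, the gene as a black bar, filled circles for conservative summits, open circles for other summits with an IDR of 0.05 or less and, at osk, crosses for ranked peaks above that IDR. Blue marks a summit nearest to the gene's own start and orange one nearest to the gene named. The summits of vas, tud and vls include 1 at the gene's own start each, and osk has none.

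The median pooled signal of the 9 summits was 159, against 105 over all 4753 conservative peaks, with 6 of the 9 above that median and 3 below it. The signal was higher in the first replicate column than in the second at 6 of the 9, against 74.6% of all conservative peaks. Over all conservative peaks the median log2 ratio of the first to the second column was 0.32 (SD 0.51), which is the scale against which each ratio below is read. The columns carry no replicate number and are called first and second. The first-column value recurred, within 0.001, in the ranked list of replicate 1 at 9 of the 9 summits, and the second-column value in that of replicate 2 at 8. In the thresholded peak list of replicate 1, 8 of the 9 summits had a partner within 100 bp, against 72.2% of all conservative summits. In that of replicate 2, 6 of the 9 did, against 60.3%, and 6 did in both, against 53.3%. In the longer ranked lists, all 9 had a partner in replicate 1, against 93.1%, and 8 in replicate 2, against 91.5%.

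**Figure D2:**
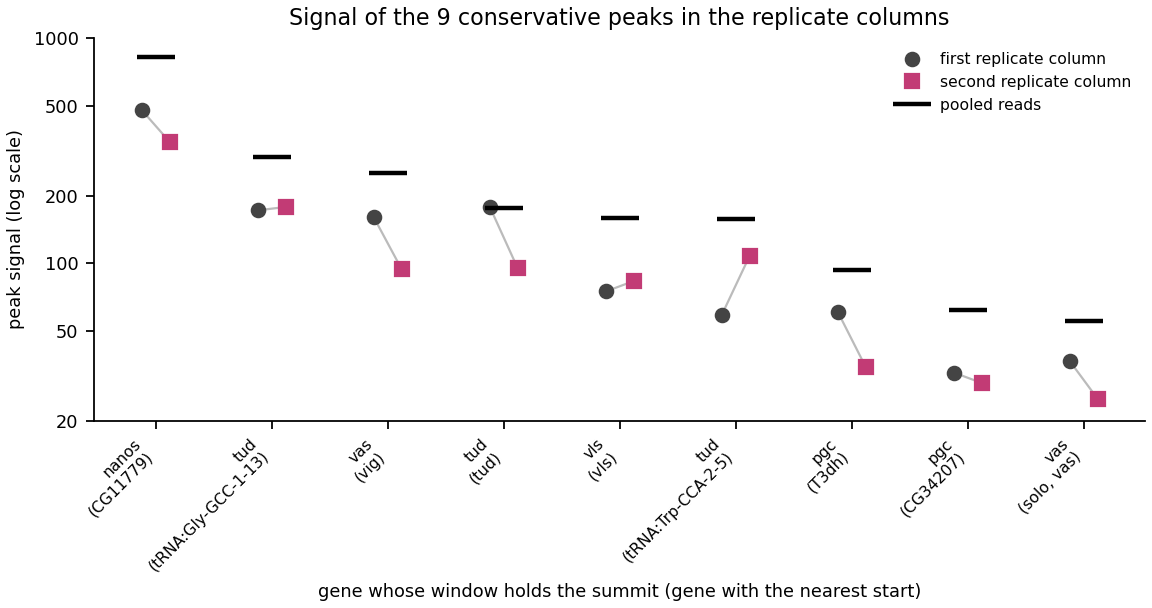
Peak signal in the first and the second replicate column for each of the 9 conservative summits, with the pooled signal as a black bar and a log axis. The peak in the nanos window, nearest to CG11779, has 478 and 346, above every other summit in both columns. The lowest values lie at the vas start and at the upstream pgc site.

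oskar (osk, FBgn0003015, chr3R:8935126-8938395, plus strand) encodes the protein that nucleates germ plasm, and its RNA is carried to the posterior pole. Its window held 8 ranked peaks, with pooled signals of 3.05 to 52.0 and a −log10 IDR of 0.075 to 0.640, all short of the IDR of 0.05 asked of a ranked peak. The strongest, 1767 bp upstream of the start, had 24.3 in the first column and 2.63 in the second. The most repeatable, 2863 bp downstream of the start, had a pooled signal of 34.9, with 16.2 and 16.7 in the columns. The 2.63 also stands in the second column of the neighbouring peak, 1565 bp upstream. The strongest peaks in the window in the replicates' own ranked lists were nearer in signal, with 24.3 at 1765 bp upstream in replicate 1 and 32.8 at 1928 bp upstream in replicate 2. None of the 9 motifs was found in the 150 bases upstream of the start shown above. Without read totals, a peak too weak to detect at this depth cannot be told from no binding.

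vasa (vas, FBgn0283442, chr2L:15061656-15074311, plus strand) encodes a DEAD-box RNA helicase of the germ plasm, and shares its start with solo, whose product acts in meiotic chromosome cohesion. The summit at that start, 19 bp upstream, was weak. Its pooled signal was 55.3, with 36.9 and 25.1 in the columns (mean 31.0 ± 8.38, SD, n = 2), and 8.50% of conservative peaks were lower. Its −log10 IDR of 2.03 was just inside the threshold of 2, an IDR of 0.01, that the conservative list keeps. It had a partner in the thresholded list of replicate 1 only. Even the longer ranked list of replicate 2 held no peak within 100 bp of it. All 3 CGATA matches of the printed vas promoter lie near this summit, at 28, 13 and 3 bp.

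The stronger vas summit lay in an intron, 6455 bp from the vas start and 33 bp upstream of the start of vig, the vasa intronic gene, which is read from the opposite strand. Its pooled signal was 251, with 160 and 94.2 in the columns (mean 127 ± 46.3, SD, n = 2), and both thresholded replicate lists held it. This peak was stronger than the one at the vas start in both columns. It had no CGATA within 100 bp. A further 2 ranked summits in the vas window were not in the conservative list. The first, with 50.5 and 22.7 in the columns, lay nearest to TfIIS, which encodes an RNA polymerase II elongation factor. The other, with 28.5 and 20.5, lay in an intron of vas, solo and vig. Its nearest start was that of vig, 2171 bp away, against 4251 bp for vas.

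tudor (tud, FBgn0003891, chr2R:21183322-21192913, plus strand) encodes a scaffold protein built of Tudor domains, which bind methylated arginine. Its window held 3 conservative summits, the most of the 6 genes. The 1 nearest to the tud start, 13 bp upstream, had a pooled signal of 176, with 178 and 95.3 in the columns (mean 137 ± 58.6, SD, n = 2). Here the pooled signal was low beside the columns: it was 0.642 of their sum, against a median of 0.986 over all conservative peaks, and 6.10% of peaks had a lower ratio. The replicates' own summits lay 43 and 45 bp from the start.

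The strongest summit in the tud window lay 479 bp upstream of tud, 13 bp from the start of tRNA:Gly-GCC-1-13, a glycine tRNA gene. Its pooled signal was 298, with 172 and 178 in the columns (mean 175 ± 4.33, SD, n = 2), so the columns were nearly equal. The remaining summit, 40 bp from the start of tRNA:Trp-CCA-2-5, a tryptophan tRNA gene, had 157 pooled, and 59.1 and 108 in the columns (mean 83.4 ± 34.5, SD, n = 2). It was the most second-column-weighted of the 9, with a log2 ratio of -0.87. It lay 1998 bp upstream of tud, just inside the window, while the summit in replicate 2 lay 2007 bp away, just outside.

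valois (vls, FBgn0003978, chr2L:20064261-20065679, minus strand) encodes a WD-repeat protein that works with the arginine methyltransferase csul. Its single summit lay 8 bp upstream of its own start. The pooled signal was 159, with 75.1 and 83.5 in the columns (mean 79.3 ± 5.91, SD, n = 2), and both thresholded replicate lists held it. Of the 6 genes, vls alone had a summit nearest to its own start and no other. Its DRE, shown in the printed promoter, lay 18 bp from the summit and 26 bp upstream of the start. The start of bwa lay 712 bp away, and a ranked peak there, with a pooled signal of 50.9 and a −log10 IDR of 1.290, fell just short of the IDR of 0.05.

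nanos (FBgn0002962, chr3R:19157238-19160202, plus strand) encodes an RNA-binding repressor of translation that acts with Pumilio and patterns the abdomen. Its window held the strongest of the 9 summits. The peak, chr3R:19156717-19157005, had a pooled signal of 820, with 478 and 346 in the columns (mean 412 ± 93.6, SD, n = 2), and its log2 ratio of 0.47 lay within 1 SD of the median of all peaks. It ranked 34 of 4753 by pooled signal, so 99.3% of conservative peaks were lower. In the thresholded lists it ranked 37 of 4626 in replicate 1 and 36 of 3332 in replicate 2.

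The nanos peak lay nearer to another gene. Its summit was 56 bp upstream of a start of CG11779, an uncharacterized protein-coding gene on the opposite strand, and 370 bp upstream of the nanos start, inside the CG11779 5′ UTR. CG11779 has further starts, 1 of them 221 bp from the nanos start and another inside the nanos gene. The summits of replicates 1 and 2 lay 59 and 53 bp from a CG11779 start, and 367 and 373 bp from the nanos start. The peak ends short of the nanos start, and which gene's promoter the binding serves was not tested. The printed CGATA lies 15 bp from the summit, and another 23 bp from it. The DRE in the nanos upstream bases lies outside the peak, 316 bp from the summit and 54 bp upstream of the nanos start. Of the ranked peaks in the window that missed the IDR of 0.05, the most repeatable lay 294 bp from the nanos start. It had 13.0 and 16.2 in the columns and a −log10 IDR of 0.430, but its pooled signal of 2.67 was the lowest in the window. Nearly level, at 0.429, was a peak nearest to the CG11779 start inside nanos, with 23.6 pooled, and 13.9 and 13.2 in the columns.

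The 3 peaks ranked just above it by pooled signal were nearest to CG30349, with 830, CG11964, with 824, and Prosalpha7, a proteasome subunit gene, with 822. The 3 just below were nearest to CG11885, with 810, mtSSB, with 805, and bun, with 801. These 6 differed from the nanos peak by at most 19.1 in pooled signal.

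**Figure D3:**
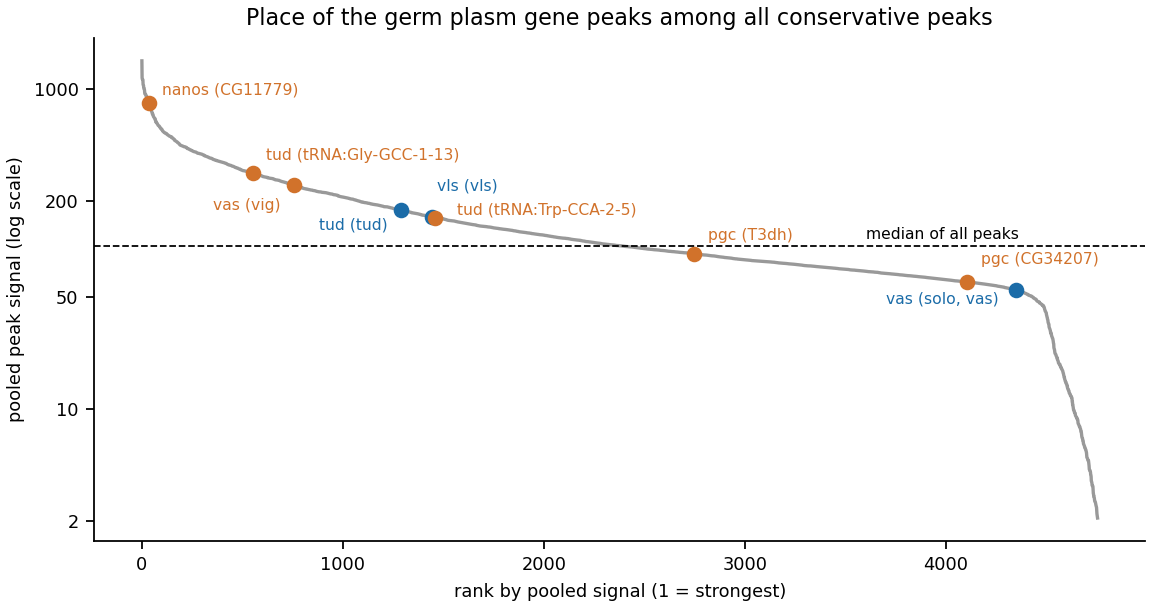
Pooled signal (log scale) of all 4753 conservative peaks against rank, with the 9 germ plasm gene summits marked and the nearest gene in brackets. The peak in the nanos window, nearest to CG11779, is at rank 34. The others spread down to rank 4349 at the vas start, with the median of all peaks drawn at 105.

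polar granule component (pgc, FBgn0016053, chr2R:22330200-22332813, plus strand) encodes a short protein that holds back transcription in pole cells. It had 2 conservative summits, both below the median of all peaks. The stronger, inside a pgc intron, had 93.3 pooled, and 61.0 and 34.8 in the columns (mean 47.9 ± 18.5, SD, n = 2). It lay 26 bp from the start of T3dh, an alcohol dehydrogenase gene on the other strand, and 73 bp from the second pgc start. Those starts are 99 bp apart. The summits in the ranked lists of both replicates lay nearest to pgc, at 44 bp in replicate 1 and 45 bp in replicate 2. Only the pooled summit lay nearer to T3dh, so the nearest gene is not settled there. The weaker, 1835 bp upstream and in a coding exon of Gp150, had 62.2 pooled, and 32.8 and 29.5 in the columns (mean 31.2 ± 2.34, SD, n = 2), and was in neither thresholded replicate list, though both ranked lists had a peak within 100 bp of it.

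CGATA was within 100 bp of 6 of the 9 summits, against 56.4% of all conservative summits and 37.1% of windows of the same length at protein-coding starts. The DRE was at 1 of 9, at vls, against 17.5% and 6.44%. ACAAT was at 4 of 9, against 42.1% and 43.7%, and CTTTG at 4 of 9, against 34.8% and 40.3%. CAGCTG was at 3 of 9, against 16.0% and 13.4%; GAGAG was at 2, against 27.0% and 25.0%; TATAAA was at 2, against 20.6% and 26.9%. Neither GGTCACAC nor CAGGTAG was at any, against 7.26% and 5.68% for the first and 1.07% and 1.08% for the second. A match is a run of letters and not a shown binding site.

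Genes that act with the 6 were read in the same way, from 5 lists with 53 genes. Of these, 35 (66.0%) had a conservative summit in their window and 25 (47.2%) had one nearest to their own start, against 37.5% and 25.4% of all protein-coding genes. The lists were chosen with earlier results of these peaks known, and the shares are a description.

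Of 20 genes for oskar RNA transport and translation, 12 had a summit. The highest pooled signals were at exu, needed to localize bicoid RNA, with 320 (183 and 143 in the columns), mago, an exon junction complex subunit, with 281 (159 and 122), and yps, a Y-box protein gene, with 269 (150 and 125). The exu value lay nearest to Fem-1, 797 bp away, while another exu summit, nearest to its own start, had 226. The mago value, from its only summit, lay 4 bp from the start of Tmtc3. BicD and bru1 had none. Of 8 regulators and partners of nanos, 6 had a summit, led by Not1, the scaffold of the CCR4-NOT deadenylase, with 323 (200 and 118), brat, a Pumilio partner, with 248 (123 and 118), and Pop2, a deadenylase of the same complex, with 185, nearest to CG6928. glo and rump had none.

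Of 10 partners of Vasa, Tudor and Valois, 6 had a summit. SmD3, a spliceosomal Sm protein gene, had 767 (481 and 282), and piwi, a piRNA-binding Argonaute gene, had 707, nearest to TTLL4A. These were the highest of the 53 list genes, below the 820 of the peak in the nanos window, nearest to CG11779. SmB had 124, while AGO3 and aub had none. Of 12 pole cell and posterior RNA genes, 10 had a summit, with 483 at CycB (341 and 147), a mitotic cyclin gene, 184 at Hsp83, nearest to CG14965, and 176 at gcl. ovo and tor had none. Of the 3 early axis regulators, bcd had 109, while cad, whose RNA Bicoid represses, and hb, whose maternal RNA Nanos represses, had none.

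**Figure D4:**
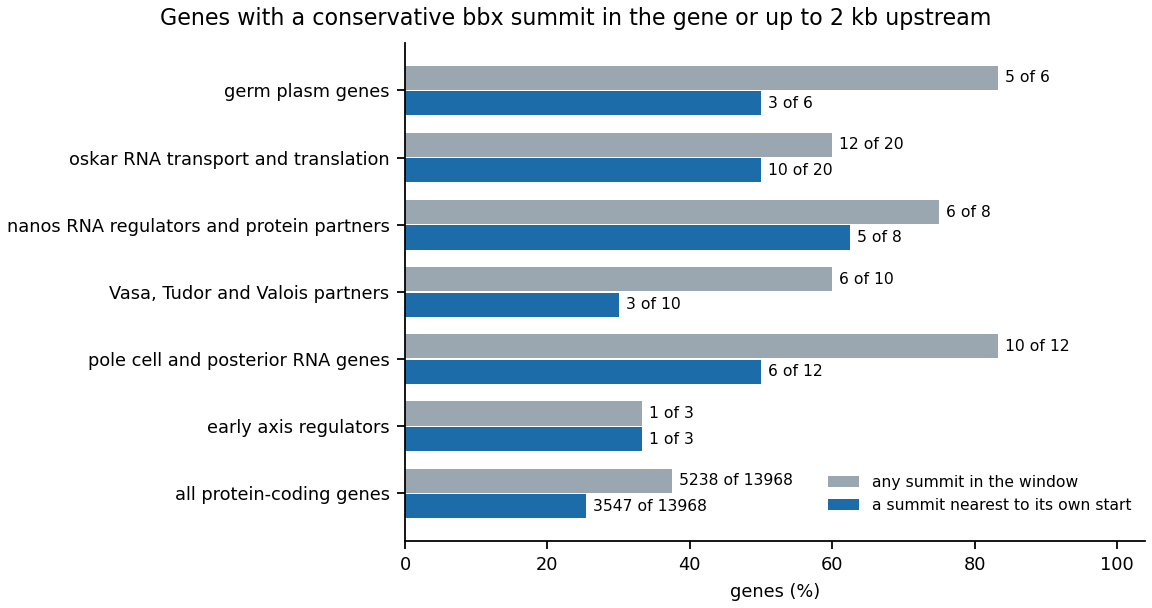
Percent of genes with a conservative summit in the gene or up to 2 kb upstream (grey) and with a summit nearest to their own start (blue), for the germ plasm genes, the 5 lists and all protein-coding genes. The grey bars run from 1 of 3 genes to 5 of 6 and 10 of 12, against 37.5% of all protein-coding genes.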

How the data were processed

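The deposited peak files, on dm6, come from 2 biological replicates of whole embryos, per the labels. The authors' deposited values are the peak signal, an IDR score, and −log10 values of q and of the IDR per peak. Aligner and peak caller: not given in the sources used here. Conservative peaks (4753) and the 7371 of 103632 ranked peaks with a global IDR of 0.05 or less were set against Ensembl release 115 genes on 7 chromosomes, transposable element genes left out; a summit counted when inside a gene or up to 2 kb upstream. Nearest starts were taken over all genes, so the choice of annotation can change which gene is nearest. Both replicate columns gave the mean ± SD, and no test was run, as there is 1 group. Motifs were exact matches on both strands within 100 bp of a summit. The text names all 6 genes, the genes nearest to their summits, the 3 peaks above and below the strongest by rank, and in each list up to 3 genes with the highest signal and the first 2 by alphabet without a summit. The members and lists were chosen with earlier results of these data known. Counting was tested on simulated peaks. Python 3.11.15, NumPy 2.4.6, pandas 2.3.3 and Matplotlib 3.10.9 were used. Other peak lists, IDR limits, windows, start sets and single replicates were tried as alternatives.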

Additional observations from a re-analysis of the deposited data

How the results depend on the processing

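Of 61 alternative values, 53 stayed within 1.5 times the reported value (for the replicate signal, within its SD) and 8 moved further. For the replicate signal, each column alone was set against the mean and SD of the same columns. Those alternatives had to stay within the SD and say nothing on stability. At an IDR of 0.001 or less, within that margin, there were 4 genes and 6 summits, with 27.0% of all protein-coding genes and 25 list genes. Genes with a summit nearest to their own start numbered 2 at that IDR and 2 to 4 with 1 replicate left out, against 3 as reported. The summit at the vas start was lost at that IDR and in replicate 2 alone. With 1 replicate left out in turn, the summits in the windows of the 6 genes numbered 5 to 10, against 9 as reported. Counting the gene body alone left 2 genes (vas and pgc) and 2 summits, with 14.7% of all protein-coding genes and 19 list genes. Keeping a summit only at the nearest protein-coding start left 3 genes (vas, tud and vls) and 5 summits, with 26.1% of all protein-coding genes and 25 list genes. This rule ignores tRNA starts, so the summits at tRNA genes beside tud counted for tud. Within 50 bp of the summits there were 13 pairs of a motif and a summit, against 22 within 100 bp. pgc was lost at an IDR of 0.001 or less and in replicate 2 alone. osk had no summit under any of the alternative settings, though its window held ranked peaks that missed the IDR of 0.05. No paired analysis was possible because there is 1 group. The unknown depth limits what the absence of a peak at osk can show.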

Other observations

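Conservative peaks also lay just beyond the windows. Past the 3′ end of osk by 268 bp, a peak nearest to ScsbetaA had a pooled signal of 251, with 169 and 92.3 in the columns. Upstream of the osk window by 1299 bp, a peak nearest to pyd had 139, with 67.3 and 79.4. Past the nanos window by 2123 bp, a peak at the starts of CG42359 and Nsun5 had 266, with 146 and 105. Upstream of the vas window by 1676 bp, a peak nearest to ck had 263, with 148 and 120.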
